A study of Homo sapiens with 6 samples.

Results

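The MYC, MAX and MXD network was examined at the RNA level in TC71, a Ewing sarcoma (EWS) cell line, after knockdown of EHD1, an ATPase of endocytic vesicle traffic. The network was taken as 10 genes: MYC, MYCN, MYCL, MAX, MXD1, MXD3, MXD4, MXI1, MNT and MGA. Each symbol matched exactly 1 of the 60676 rows of the gene count table, and 9 of the 10 genes passed the filter of at least 10 counts in at least 3 libraries, which 16785 genes passed in all. The comparison was of shEHD1+Dox with shNTC+Dox, each with 3 libraries. Both came from TC71 cells carrying a doxycycline (Dox)-inducible lentiviral construct that also encodes GFP, with an shRNA against EHD1 in the first group and a non-targeting control shRNA (shNTC) in the second. All 6 libraries came from cells given 0.5 µg/ml Dox for 3 days. According to the study's methods, the lines were stable polyclonal pools selected with puromycin. The groups were thus separate lines. Loss of EHD1, other effects of the shRNA and differences between the lines cannot be told apart here, also where a change is described as after knockdown. Cells without Dox were not analysed here, and nothing in the labels says whether replicates were separate cultures, so the p-values measure only the spread between these libraries.

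MYC, MYCN and MYCL are basic helix-loop-helix leucine zipper transcription factors that bind DNA as dimers with MAX and activate genes of growth, ribosome production and cell cycle entry. MXD1, MXI1 (also called MXD2), MXD3, MXD4 and MNT dimerize with the same MAX protein at the same E-box sequences and recruit SIN3-HDAC corepressors, and MGA brings MAX into a Polycomb complex called PRC1.6. The proteins therefore share one partner and one set of sites, and MYC is commonly expressed in EWS.

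The core E-box that these dimers recognise, CACGTG, also occurs in the promoters of network genes themselves. RefSeq promoters (GRCh38.p14, 250 bases before to 50 bases after each annotated start) were found for 9 members, in 14 windows. CACGTG, which reads the same on both strands, was present in 2 of these windows, in MXD4 and MNT, and in 7.26% of all 35116 promoters. The related word CACGCG, searched on both strands, was present in 3 windows, in MXI1, MXD3 and MGA, and in 11.4% of all promoters. The stretches around these words in MXD4, MNT and MXI1 are shown because MXI1 is the antagonist that rose after EHD1 knockdown and MXD4 and MNT hold the canonical box. Capitals mark the E-box word, and each is read 5′ to 3′ on the strand of its gene.
MXD4 (chr4:2262330-2262359, minus strand, the word starting at -238 from an annotated start): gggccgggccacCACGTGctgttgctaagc
MNT (chr17:2401236-2401265, minus strand, the word starting at -193 from an annotated start): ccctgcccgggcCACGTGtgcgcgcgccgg
MXI1 (chr10:110225992-110226021, plus strand, the word starting at 8 from an annotated start inside the gene): aggtaaacaaacCACGCGcgggctgcccgc
These matches describe the sequence only. Among tested genes, the median log2 fold change was 0.00 for the 1386 with CACGTG in a promoter and 0.01 for the 9605 without it. Of the genes with the box, 11.5% were called higher and 9.96% called lower (adjusted p under 0.05), against 9.99% and 9.77% of those without it.

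The libraries held between 22711235 and 28203023 counts in shNTC+Dox and between 24150135 and 30582187 in shEHD1+Dox. EHD1 itself was at 29.6% of its control level (log2 fold change -1.76 with a standard error, SE, of 0.12, and an edgeR adjusted p = 1.35e-04). All 10 Ewing sarcoma markers listed passed the count filter, at a summed 4140 to 4310 TMM-normalized CPM (counts scaled to a common library total) in shNTC+Dox and 4270 to 4460 in shEHD1+Dox. Of these 10 markers, CD99 was called higher and BCL11B and STEAP1 lower. That is 30%, beside 17.3% of all tested genes (8.59% higher and 8.75% lower). The summed leukocyte markers were at most 0.582 CPM in any library, with CD3E and MS4A1 at 0. The 6 fibroblast markers summed to between 20.7 and 30.8 CPM, mostly COL1A1. Of 5 fibroblast markers tested, 1 was called lower (20%, beside 8.75% of all tested genes). The 4 epithelial markers summed to 27.2 to 31.5 CPM in shNTC+Dox and 34.1 to 40.2 in shEHD1+Dox, mostly KRT18, with EPCAM and CDH1 at or near 0. The part of these markers in the results was not tested. On the second principal component, which held 22% of the variance, shNTC+Dox replicate 3 scored 38.7 while control replicates 1 and 2 scored -32.8 and -29.1. On the same component, shEHD1+Dox replicate 2 scored 24.2 while replicates 1 and 3 of that group scored -2.09 and 1.01. Calls that change without shNTC+Dox replicate 3 are also given.

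After EHD1 knockdown, 3 of the 9 tested network genes were called, with MYC and its partner MAX lower and the antagonist MXI1 higher in shEHD1+Dox. MYC fell to 81.3% of the control level and MAX to 60.8%, and MXI1 rose to 169%. Across all tested genes, 17.3% passed an adjusted p of 0.05 (edgeR quasi-likelihood test, Benjamini-Hochberg) and are referred to as called, 8.59% higher and 8.75% lower. With the further condition of a 2-fold change, which 2.82% of all tested genes met (1.08% higher and 1.74% lower), 0 network genes were called by edgeR or DESeq2, and 4 of the 9 had an unadjusted p under 0.05, beside 32.3% of all tested genes (16.0% higher and 16.3% lower). The groups did not overlap for 5 of the 9 genes (3 higher and 2 lower), and for 39.3% of all tested genes (19.9% higher and 19.4% lower). The median log2 fold change was 0.10 over the 9 genes and 0.00 over all genes.

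**Figure D1:**
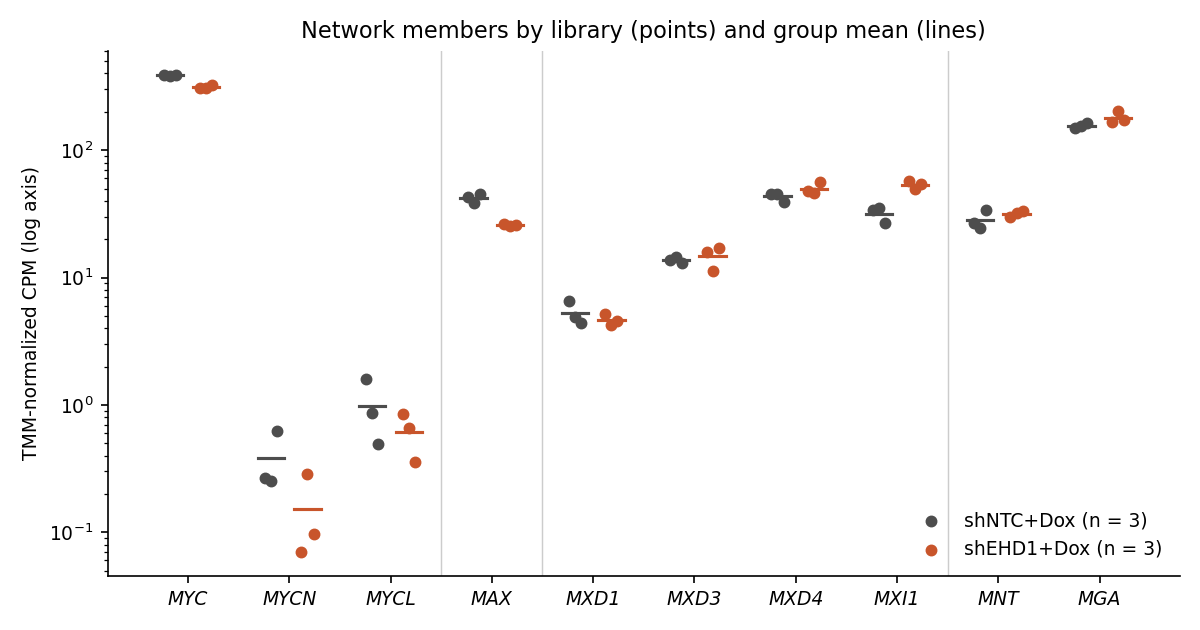
TMM-normalized CPM (log axis, not corrected for gene length) of the 10 network genes in each of the 6 libraries, with 3 points and a mean line per group. The 3 shEHD1+Dox points lie below the control points for MYC and MAX and above them for MXI1, MXD4 and MGA, and MYCN and MYCL lie below 2 CPM.

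MYC (ENSG00000136997, chromosome 8 from 127735434 to 127742951 in hg38, plus strand) was the dominant activator. Its level was 392, 380 and 386 CPM in shNTC+Dox replicates 1, 2 and 3 and 309, 306 and 326 CPM in the shEHD1+Dox libraries. The groups did not overlap, and the spread within each group was small beside the difference, with means of 386 ± 5.83 and 314 ± 10.9 CPM (SD, n = 3 each). The log2 fold change was -0.30 (edgeR SE 0.06, adjusted p = 0.0129). An exact two-sided permutation test gave p = 0.1, the smallest that 3 libraries against 3 allow. The call was lost when certain libraries were left out, since the adjusted p was 0.0538 without shNTC+Dox replicate 1 and 0.0697 without shEHD1+Dox replicate 1, at a log2 fold change of -0.29 in both. Since these are bulk libraries, a lower level in each cell and a smaller share of expressing cells cannot be told apart for this or any other gene.

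The 2 paralogs of MYC were nearly silent. MYCN (ENSG00000134323, chromosome 2 from 15940550 to 15947007), the family member known for amplification in neuroblastoma, had 7, 7 and 14 counts in shNTC+Dox and 2, 7 and 3 counts in shEHD1+Dox, and it did not pass the count filter. Without the filter its log2 fold change was -1.32 (edgeR SE 0.74, adjusted p = 0.377). MYCL (ENSG00000116990, chromosome 1 from 39895428 to 39902256), first known from small cell lung cancer, had 42, 24 and 11 counts in shNTC+Dox and 24, 16 and 11 counts in shEHD1+Dox. Its groups overlapped, at -0.69 on the log2 scale with an SE of 0.50 and an adjusted p of 0.382 in edgeR. Without shNTC+Dox replicate 1, which had the most MYCL counts, the value was -0.16, and it ran to -1.0 without shNTC+Dox replicate 3. At such counts the fold changes of MYCN and MYCL were uncertain, and these libraries do not show whether either gene changed. The summed CPM of MYC, MYCN and MYCL, which is nearly all MYC, was 387 ± 6.2 in shNTC+Dox and 314 ± 10.7 in shEHD1+Dox.

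MAX (ENSG00000125952, chromosome 14 from 65006174 to 65102695, minus strand), the common dimerization partner of MYC and its antagonists, had the smallest adjusted p of the 9 genes. It was at 43.1, 38.5 and 45.4 CPM in the shNTC+Dox libraries and at 26.1, 25.3 and 25.7 CPM in the shEHD1+Dox libraries. The knockdown libraries were within 1 CPM of each other and all lay below the lowest control library. The log2 fold change was -0.72 (edgeR SE 0.08, adjusted p = 0.00109), from 42.3 ± 3.51 to 25.7 ± 0.38 CPM. Of the 6257 exonic bases annotated for MAX, 1006 are shared with genes on the opposite strand, mainly FNTB and CHURC1-FNTB, and the library kit does not keep strand. FNTB and CHURC1-FNTB had log2 fold changes of -0.10 and -0.02 (edgeR adjusted p = 0.743 and 0.987). Summed with its overlapping genes, MAX held 47.9% of the counts and the sum stood at -0.39 on the log2 scale (edgeR adjusted p = 0.0134).

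MXI1 (ENSG00000119950, chromosome 10 from 110207605 to 110287365, plus strand), an MXD antagonist of MYC, was the only one of the 6 antagonists called in the full set of libraries. Its level was 33.6, 35.0 and 26.6 CPM in shNTC+Dox and 57.0, 49.3 and 54.2 CPM in shEHD1+Dox. The lowest knockdown library lay above the highest control library. The log2 fold change was 0.75 (edgeR SE 0.11, adjusted p = 0.00313), from 31.7 ± 4.52 to 53.5 ± 3.88 CPM. MXI1 shares 205 exonic bases with an antisense gene, which had 0 counts in all 6 libraries.

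**Figure D2:**
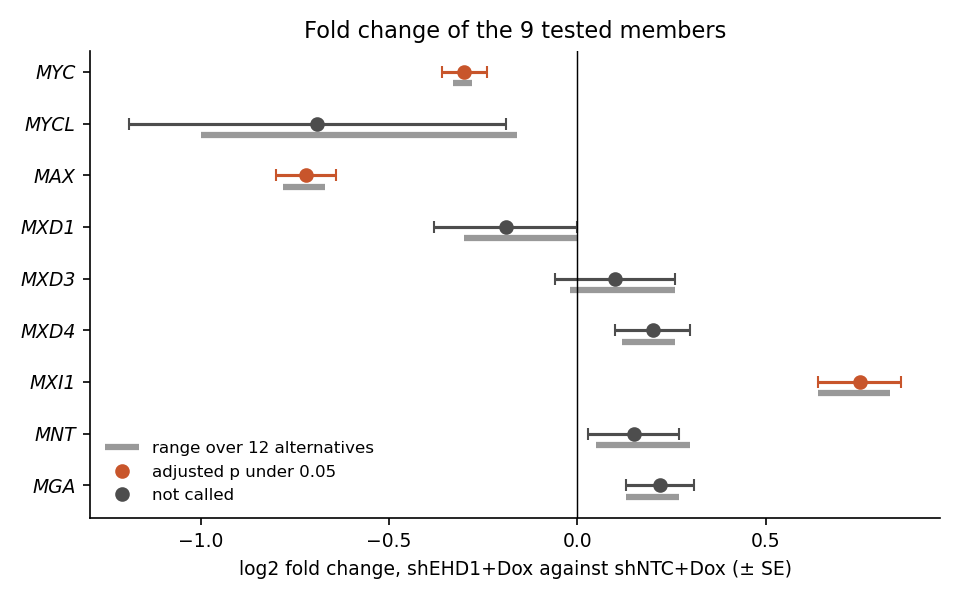
Log2 fold change (± standard error) of the 9 tested network genes, shEHD1+Dox against shNTC+Dox, with grey bars for the range over the 12 alternative fits. MAX at -0.72, MYC at -0.30 and MXI1 at 0.75 were called, and the range of each stays on 1 side of 0.

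The other MXD genes did not pass the test. MXD4 (ENSG00000123933, chromosome 4 from 2247432 to 2262109) was at 45.6, 45.5 and 39.1 CPM in shNTC+Dox and 48.0, 46.0 and 55.9 CPM in shEHD1+Dox, with a log2 fold change of 0.20 (edgeR SE 0.10, adjusted p = 0.188). Its groups did not overlap, but replicates 1 and 2 of the control lay within 1 CPM of the lowest knockdown library. The log2 fold change of MXD4 was 0.13 without shNTC+Dox replicate 3 and 0.12 without shEHD1+Dox replicate 3. MXD3 (ENSG00000213347, chromosome 5 from 177301461 to 177312757), an MXD gene linked to S phase, was at 12.9 to 14.5 CPM in shNTC+Dox and spread from 11.3 to 17.1 CPM in shEHD1+Dox, around the control libraries on both sides. Its log2 fold change was 0.10 (edgeR SE 0.16, adjusted p = 0.688), and 2074 of its 4743 exonic bases are shared with RAB24 and PRELID1, so its counts are uncertain. MXD1 (ENSG00000059728, chromosome 2 from 69897688 to 69942945), typical of differentiating cells, was the weakest MXD gene, at 4.39 to 6.54 CPM in shNTC+Dox and 4.25 to 5.13 CPM in shEHD1+Dox. Its groups overlapped, with a log2 fold change of -0.19 (edgeR SE 0.19, adjusted p = 0.556), which was 0.00 without shNTC+Dox replicate 1 and -0.30 without shNTC+Dox replicate 3. MXD1 shares 237 exonic bases with SNRNP27, and it held 11.5% of the counts of both together. The sum stood at 0.24 on the log2 scale (edgeR adjusted p = 0.092), opposite in sign to MXD1 alone. SNRNP27 alone was at 0.29 (edgeR adjusted p = 0.0704). How shared reads were assigned is not known.

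MNT and MGA, the larger antagonists, were also not called. MNT (ENSG00000070444, chromosome 17 from 2384073 to 2401104) was at 26.9, 24.5 and 34.2 CPM in shNTC+Dox and 29.7, 32.3 and 33.1 CPM in shEHD1+Dox. Control replicate 3 lay above all knockdown libraries while the other two lay below them, and the log2 fold change was 0.15 (edgeR SE 0.12, adjusted p = 0.436). Without shNTC+Dox replicate 3, MNT was called higher, at 0.30 (edgeR adjusted p = 0.0338). MGA (ENSG00000174197, chromosome 15 from 41621134 to 41773081), which carries both a T-box and a helix-loop-helix domain, was at 148, 154 and 163 CPM in shNTC+Dox and 166, 202 and 173 CPM in shEHD1+Dox. Its groups did not overlap, by a margin of few CPM, and the log2 fold change was 0.22 (edgeR SE 0.09, adjusted p = 0.118). Of the 6 antagonists, 5 had a log2 fold change above 0, of which MXI1 alone passed the test.

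Levels were compared between genes per kilobase of exon (TMM-normalized RPKM, over all annotated exons of a gene, which understates genes with rarely used exons). In shNTC+Dox the order was MYC at 63.2 ± 0.95 RPKM, then MGA at 7.74 ± 0.38, MAX at 6.76 ± 0.56, MXD4 at 6.31 ± 0.54, MXI1 at 5.37 ± 0.77, MNT at 3.28 ± 0.58, MXD3 at 2.89 ± 0.17 and MXD1 at 0.83 ± 0.18, with MYCL at 0.20 ± 0.11 and MYCN at 0.14 ± 0.08. MYC exceeded 96.6% of all tested genes on this scale. The control libraries of MAX and MXD4 overlapped, as did those of MXD4 and MXI1, of MNT and MXD3 and of MYCL and MYCN. In shEHD1+Dox, MXI1 moved from the fifth place to the second, at 9.06 ± 0.66 RPKM, where it overlapped MGA at 8.99 ± 0.95. MAX moved from the third place to the fifth, at 4.11 ± 0.06 RPKM, below MXD4 at 7.27 ± 0.76 without overlap.

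Because MYC and its antagonists compete for MAX, their proportions were taken within each library, where scaling between libraries cancels. These are descriptions of genes already compared above and carry no test. The ratio of MYC counts to the summed counts of the 6 antagonists was 1.43, 1.36 and 1.38 in the control libraries and 0.96, 0.89 and 0.97 in the knockdown libraries. Every control library thus held more MYC counts than antagonist counts, and every knockdown library held fewer. Per kilobase, the ratio went from 2.39 ± 0.07 to 1.57 ± 0.01, a change of -34.5%. The MAX level equalled 7.57%, 6.91% and 8.17% of the summed level of MYC and the antagonists in shNTC+Dox, against 5.02%, 4.94% and 4.7% in shEHD1+Dox, again per kilobase. The ratio of MYC to MAX was higher after knockdown, at 12.5 ± 0.44 against 9.38 ± 0.71, since MAX fell further than MYC. MXI1 accounted for 34.8% ± 1.59 of the 4 MXD transcripts in shNTC+Dox and 45.0% ± 2.22 in shEHD1+Dox. These are transcript proportions, and protein levels were not measured.

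**Figure D3:**
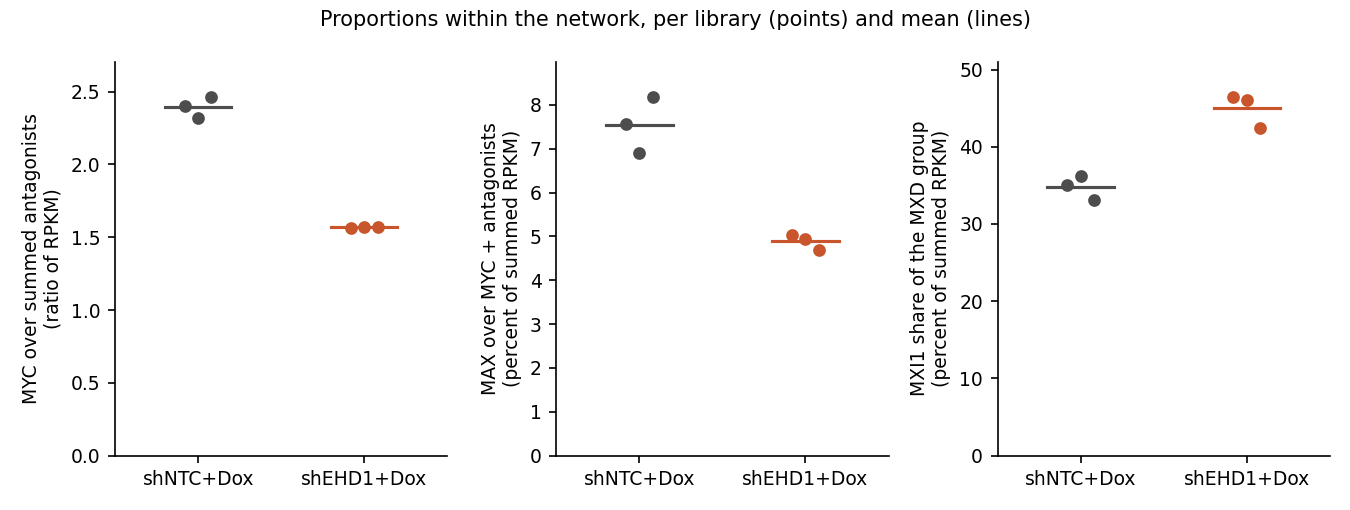
Proportions of RPKM within each of the 6 libraries (points) with group means (lines), 3 libraries per group and axes starting at 0. From left to right, MYC over the 6 antagonists went from 2.39 to 1.57, MAX over MYC plus antagonists from 7.55% to 4.89%, and the MXI1 share of MXD1, MXD3, MXD4 and MXI1 from 34.8% to 45.0%.

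A parallel arm of the network uses MLX in place of MAX. MLX and its partner MLXIP (MondoA), a sensor of glucose phosphate, had log2 fold changes of -0.13 and -0.15 (edgeR adjusted p = 0.267 and 0.313). MLXIPL (ChREBP) had at most 10 counts in a library and was not tested. TXNIP, a MondoA target that limits glucose uptake, was at 18.3 ± 5.28 CPM in the controls and rose to 34.2 ± 3.49, by 0.90 on the log2 scale (edgeR SE 0.20, adjusted p = 0.0217), and lost the call without shEHD1+Dox replicate 1 or 3 (adjusted p = 0.0748 and 0.0790). ARRDC4, the other target on the list, had 0 counts in all 6 libraries.

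Transcripts around the MYC family genes were mostly rare. PVT1, a long non-coding RNA gene next to MYC, was at 65.6 ± 2.78 CPM in shNTC+Dox and 56.4 ± 2.33 in shEHD1+Dox without overlap, and its log2 fold change of -0.22 did not pass (edgeR adjusted p = 0.0635). It was called without shNTC+Dox replicate 3 (adjusted p = 0.0420) and by DESeq2 (adjusted p = 0.0396). PCAT1 and POU5F1B, also near MYC, had log2 fold changes of -0.30 and -0.65 (edgeR adjusted p = 0.432 and 0.391). POU5F1B had only 5 to 16 counts per library and was tested in just 3 of the fits that left out 1 library. CASC11, which shares 194 exonic bases with MYC on the opposite strand, had 5 to 17 counts per library and a log2 fold change of 0.05, with a sign that turned to -0.22 without shNTC+Dox replicate 2 and to -0.18 without shNTC+Dox replicate 3. CASC19 had at most 11 counts in a library, CASC8 at most 2, and MYCNOS and MYCNUT, near MYCN, had 0 in all libraries. The 3 genes whose log2 CPM followed MYC most closely over the 6 libraries were MBD3L3, ACAD8 and SNRPA, with Pearson's r of 0.995, 0.994 and 0.994, as a description over 6 points that share their grouping.

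Few transcripts for proteins that MYC and its antagonists recruit were called by edgeR. It called 5% of the coactivator, 0% of the corepressor and 8.33% of the PRC1.6 genes below. Of all tested genes it called 17.3%, 8.59% higher and 8.75% lower. An unadjusted p under 0.05 in edgeR was found for 32.3% of all tested genes, 16.0% higher and 16.3% lower. Of 20 MYC coactivators and binding partners, 0 were called higher and 1 lower by edgeR and by DESeq2, and 1 in each direction had an unadjusted p under 0.05. The one called was KAT2A (GCN5), a histone acetyltransferase of the SAGA complex, which fell from 49.5 ± 6.99 to 29.2 ± 1.76 CPM (log2 fold change -0.76, edgeR SE 0.11, adjusted p = 0.00264). Of 18 SIN3-HDAC corepressor genes, 0 were called by edgeR, with 4 at an unadjusted p under 0.05, and 1 was called lower by DESeq2 and 1 by edgeR without shNTC+Dox replicate 3. Among the 12 PRC1.6 partners of MGA, E2F6, a repressor of the E2F family, fell (log2 fold change -0.30, edgeR SE 0.07, adjusted p = 0.0196), and the call was lost without shNTC+Dox replicate 1, shEHD1+Dox replicate 1 or shEHD1+Dox replicate 3 (adjusted p from 0.0644 to 0.0953). Of these 12 genes, 4 were lower and 0 higher at an unadjusted p under 0.05 in edgeR. DESeq2 called 4 of the 12 lower and 0 higher. Over all the genes to which it gave an adjusted p, DESeq2 called 23.9%, 11.6% higher and 12.3% lower. The medians of these lists were 0.00, -0.10 and -0.07 on the log2 scale.

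Genes of MYC protein turnover were called in both directions. Of 20 tested, 4 were higher and 2 lower at an adjusted p under 0.05 (30.0%, beside 17.3% of all tested genes), with a median log2 fold change of 0.08. Those higher included FBXO32 and FBXW7, both F-box proteins of ubiquitin ligases that target MYC, and USP28, a deubiquitinase that opposes FBXW7. Their log2 fold changes were 1.02 for FBXO32, 0.36 for FBXW7 and 0.35 for USP28 (edgeR adjusted p = 0.00837, 0.0277 and 0.00975). The other gene called higher, GSK3B, named here after its value was seen, encodes a kinase that marks MYC for FBXW7 and had a log2 fold change of 0.27. SKP2, a further F-box protein that also acts as a MYC coactivator, and SET, an inhibitor of the phosphatase PP2A, fell by 0.33 and 0.35 on the log2 scale (edgeR adjusted p = 0.0379 and 0.0170). The calls of FBXO32 and USP28 held in each of the 12 alternatives, while the other calls were lost in several fits that left out 1 library. FBXW7 lost its call without shNTC+Dox replicate 1 or any 1 shEHD1+Dox library, GSK3B without any 1 library but shNTC+Dox replicate 3, SKP2 without any 1 library but shNTC+Dox replicate 3 or shEHD1+Dox replicate 2, and SET without shEHD1+Dox replicate 1 or 3. The adjusted p reached 0.0984 for FBXW7, 0.101 for GSK3B, 0.138 for SKP2 and 0.0832 for SET.

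Of 10 genes for proteins that bind MYC or MYCN mRNA, 3 were called higher and 1 lower, beside 8.59% and 8.75% of all tested genes. Leaving out any 1 library but shNTC+Dox replicate 3 left 1 called higher, and the lower call was also lost in all of these fits but that without shEHD1+Dox replicate 2. ZFP36L1, which speeds decay of AU-rich mRNA, rose from 22.6 ± 2.13 to 32.4 ± 1.02 CPM (log2 fold change 0.52, edgeR SE 0.09, adjusted p = 0.00684). IGF2BP2 rose by 0.29 and IGF2BP3 fell by 0.30 on the log2 scale (edgeR adjusted p = 0.0365 and 0.0204), although both encode proteins of the family that protects MYC mRNA. LIN28B, a repressor of let-7 processing, rose by 0.39 (edgeR adjusted p = 0.0272). IGF2BP2 and LIN28B lost their calls without any 1 library but shNTC+Dox replicate 3, and IGF2BP3 without any but that library and shEHD1+Dox replicate 2, with adjusted p up to 0.126, 0.0903 and 0.0925. Of 12 regulators of MYC transcription, 0 were called by edgeR, beside 17.3% of all tested genes. At an unadjusted p under 0.05 in edgeR there were 4, beside 32.3% of all tested genes. DESeq2 called 3 lower and 0 higher, beside 12.3% and 11.6% of all genes.

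Among genes that MYC is known to activate, the few calls by edgeR over all 6 libraries were lower in shEHD1+Dox. Of the 58 genes on a list written after the Hallmark MYC targets V2 set, 42 had a log2 fold change below 0, 5 were called lower and 0 higher by edgeR, and the median was -0.14, beside 0.00 for all tested genes. The share called lower by edgeR was 8.62%, beside 8.75% of all tested genes. DESeq2 called 13 lower and 0 higher, beside 12.3% and 11.6% of all genes. At an unadjusted p under 0.05 there were 18 lower and 0 higher, beside 16.3% and 16.0% of all genes, and the list was not tested against other genes. The 5 were SLC29A2, a nucleoside transporter (log2 fold change -0.73, edgeR adjusted p = 3.90e-04), NOP56, a core protein of snoRNA particles (-0.53, adjusted p = 0.00986), DCTPP1, a nucleotide pool enzyme (-0.48, adjusted p = 0.0148), and, named after their values were seen, UNG and MCM4 (-0.71 and -0.84), which act in uracil repair and replication licensing. DCTPP1 shares 645 of its 1564 exonic bases with ZNF771 on the opposite strand, so its counts are uncertain. SLC29A2 and NOP56 held their calls in all 12 alternatives. DCTPP1 lost its call without any 1 shEHD1+Dox library (adjusted p up to 0.0653), UNG without shEHD1+Dox replicate 1 or 3 (up to 0.0709), and MCM4 without shNTC+Dox replicate 1 or 3 or shEHD1+Dox replicate 1 or 3 (up to 0.101). Without shNTC+Dox replicate 3, which stood apart from the other controls, the list had 5 genes called lower and 5 called higher and a median of -0.05. Leaving out shEHD1+Dox replicate 1 left 3 called lower, and leaving out shEHD1+Dox replicate 3 left 2.

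Among RNA polymerase I and nucleolar genes, a further class of MYC targets, 15 of 19 tested had a log2 fold change below 0 and the median was -0.14. Of these genes 3 were called lower and 0 higher (15.8%, beside 17.3% of all tested genes, 8.75% lower and 8.59% higher). Those called were TAF1A and UBTF, factors of ribosomal DNA transcription (-0.57 and -0.52, edgeR adjusted p = 0.0217 and 0.0365), and NHP2, a protein of H/ACA snoRNA particles (-0.25, adjusted p = 0.0483). NHP2 lost its call without any 1 of the 6 libraries (adjusted p from 0.0522 to 0.109). NHP2 also shares 414 of its 1476 exonic bases with RMND5B on the opposite strand. Without shNTC+Dox replicate 3 the list had a median of -0.05 with 3 called lower and 1 higher, and 0 were called lower without any 1 of the 3 shEHD1+Dox libraries. DESeq2 called 5 lower and 0 higher, beside 12.3% and 11.6% of all genes. At an unadjusted p under 0.05 in edgeR there were 7 lower and 0 higher, beside 16.3% and 16.0% of all genes. Of 9 polyamine genes, 1 was called lower (11.1%, beside 8.75% of all tested genes). It was AMD1, an enzyme of spermidine synthesis (-0.36, edgeR adjusted p = 0.0429). AMD1 lost the call without shNTC+Dox replicate 2, shEHD1+Dox replicate 1 or shEHD1+Dox replicate 3 (adjusted p up to 0.149).

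Genes that MYC is known to repress were called in both directions. Of 10 tested, 2 were called higher and 1 lower, beside 8.59% and 8.75% of all tested genes. A log2 fold change above 0 was measured for 7 of the 10, beside 50.1% of all tested genes, and the median was 0.22. Without shNTC+Dox replicate 1 or without shEHD1+Dox replicate 1, 1 was called higher. GADD45A, a stress and growth arrest gene, rose from 9.87 ± 0.54 to 17.9 ± 0.58 CPM (log2 fold change 0.86, edgeR SE 0.10, adjusted p = 0.00126) and held its call in each of the 12 alternatives. CDKN1B (p27), a CDK inhibitor, rose by 0.33 (edgeR adjusted p = 0.0116), with adjusted p-values of 0.0557 without shNTC+Dox replicate 1 and 0.0616 without shEHD1+Dox replicate 1. GAS1, a growth arrest gene, fell by 0.39 (adjusted p = 0.0217) and lost the call when any 1 library but shNTC+Dox replicate 3 was left out (adjusted p up to 0.0785). The median of the list was 0.11 without a filter on low counts and 0.12 with 10 counts required in every library.

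**Figure D4:**
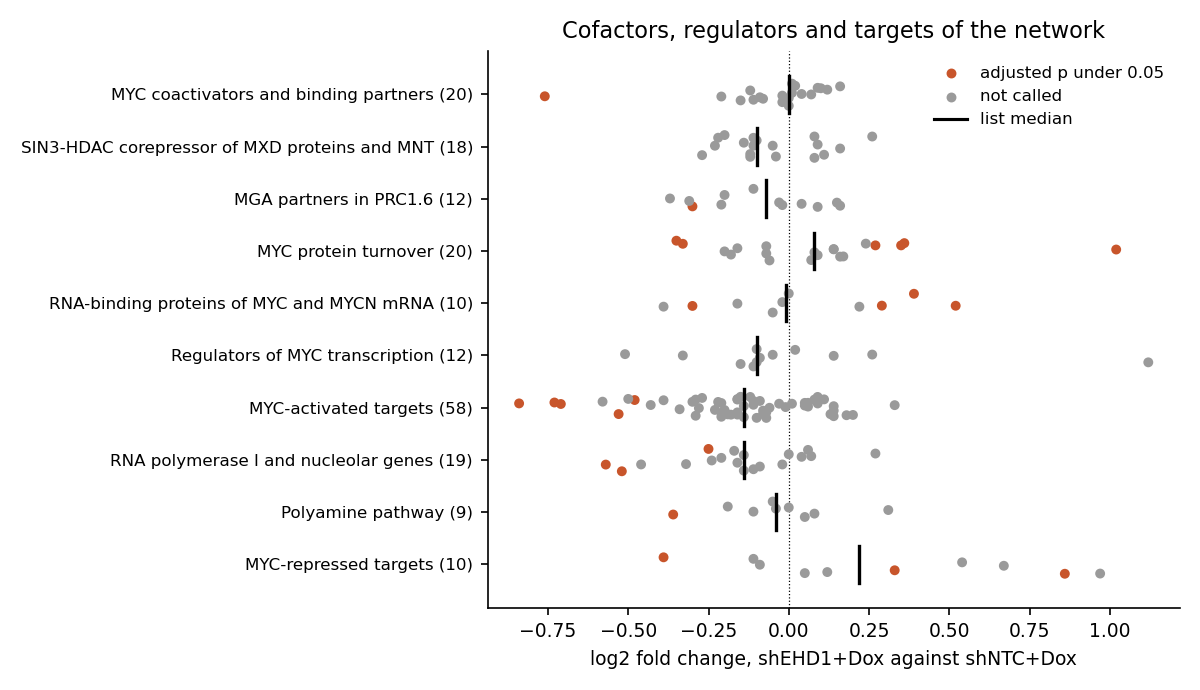
Log2 fold change of each tested gene (points) in 10 gene lists, shEHD1+Dox against shNTC+Dox, with list medians as black lines, the number tested in parentheses and genes at an adjusted p under 0.05 in orange. The medians lie between -0.14 for MYC-activated targets and RNA polymerase I genes and 0.22 for MYC-repressed targets.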

How the data were processed

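TC71 RNA was sequenced in 3 libraries of each group, shNTC+Dox and shEHD1+Dox. The deposited values are whole-number counts per gene without normalization, which the authors made from paired-end reads (TruSeq RNA v2 kit) aligned to hg38 under Ensembl annotations. The study's methods name hisat2 and StringTie, the submitters' processing notes name STAR 2.7.3a, and which of them made the counts is not given in the sources used here. Reads shared by overlapping genes may therefore be split in ways that are not known.

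Counts were scaled by TMM and tested with edgeR 4.0.16 in R 4.3.3 (quasi-likelihood functions glmQLFit, robust, and glmQLFTest). A gene entered if 3 or more libraries had 10 or more counts, which left 16785, and p-values were adjusted by Benjamini-Hochberg across these. Called means an adjusted p under 0.05, and the study's 2-fold condition was given separately. CPM and RPKM used TMM-scaled library sizes and GENCODE 44 exon lengths (hg38). The totals of 22711235 to 30582187 counts set the counting error, and the typical variation between replicates was 15.0%. Log2 CPM used a prior count of 2. The members and lists were chosen with earlier results of these data known. The list symbols USP36 and CCAT1 matched no row and were not analysed here. The named genes were all members, EHD1, the MLX arm, the transcripts near MYC family genes, up to 3 called genes per direction in each other list by adjusted p, the 3 genes most correlated with MYC (mean CPM of at least 1), and GSK3B, UNG and MCM4, added after their values were seen. On data simulated for this comparison over 16510 genes, 99 genes were changed by 0.7 and 96 by 1.5 on the log2 scale. There edgeR called 47.5% of those changed by 0.7 and 97.9% of those changed by 1.5. The share found at a given size in the real libraries, where 17.3% of tested genes were called, was not tested. The alternatives were DESeq2's size factors, the DESeq2 1.42.0 Wald test, no filter, a filter in every library, the replicate number as a block, no robust estimation and each library left out.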

Additional observations from a re-analysis of the deposited data

How the results depend on the processing

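MAX and MXI1 kept their call and direction in each of the 12 alternatives, with log2 fold changes from -0.78 to -0.67 and from 0.64 to 0.83. Leaving out 1 library at a time, MYC ran from -0.33 to -0.28, MNT from 0.05 to 0.30, MYCL from -1.0 to -0.16, MXD1 from -0.30 to 0.00, MXD4 from 0.12 to 0.26, MGA from 0.13 to 0.27 and MXD3 from -0.02 (without shEHD1+Dox replicate 3) to 0.26, and CASC11, tested in 3 of these fits, from -0.22 to 0.14. The number of network genes called ran from 1 to 2 higher and from 1 to 2 lower, all genes at an adjusted p under 0.05 from 1322 to 3616, and all genes that also changed by 2-fold from 293 to 452. The labels do not say whether same-numbered libraries were paired. With group means taken out, same-numbered libraries of the 2 groups correlated at 0.0720, -0.0593 and -0.0448. Differently numbered ones correlated between -0.0817 and 0.11. So few values cannot decide whether the libraries were paired. With the replicate number as a block, MYC was at -0.30 with an adjusted p of 0.0513, which left 1 network gene called lower. In all, 1766 genes were called. With the block, 0 genes were called lower in the PRC1.6, MYC turnover, RNA polymerase I and nucleolar, polyamine and MYC-repressed lists. The turnover list kept 2 called higher. E2F6, FBXW7, GSK3B, SKP2, SET, IGF2BP2, TAF1A, UBTF, NHP2, AMD1, GAS1 and ACAD8 lost their calls with the block (edgeR adjusted p from 0.0515 to 0.0956). The difference in the ratio of MYC to antagonist counts ran from -0.465 to -0.425 when 1 library was left out. Of the 28 genes named outside the network that were called, 19 lost the call in at least 1 alternative. The cause of these changes was not tested. Depth limits MYCN, MYCL, MLXIPL, POU5F1B, CASC8, CASC11 and CASC19, which had few counts.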
